A study of Rattus norvegicus with 62 samples.

Results

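Neuropeptide receptors are the membrane proteins through which sensory neurons answer peptides released by neighbouring neurons, glia and immune cells. The 10 genes described here, out of 40982 genes in the count tables, were chosen by symbol: the NPY receptors Npy1r, Npy2r and Npy5r, the galanin receptors Galr1 and Galr2, the cholecystokinin receptor Cckbr, the VIP and PACAP receptors Vipr1, Vipr2 and Adcyap1r1, and the somatostatin receptor Sstr2. All 10 had a row in both tables, and 9 had enough counts to be tested; Vipr1 did not.

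The data are counts of polyadenylated RNA per gene in L4 dorsal root ganglia of rats, the clusters of sensory neuron cell bodies, satellite glia and other cells beside the spinal cord at a lumbar level that feeds the sciatic nerve. All animals had a chronic constriction injury (CCI), in which loose ligatures around the sciatic nerve give a lasting neuropathic pain state. Each arm of the study compared injured-side (ipsilateral) ganglia with those of the opposite (contralateral) side, and there were 5 arms: males at 24 h (6 and 6 libraries), males at 1 week (7 and 7), males at 5 weeks (5 and 5), females at 1 week (7 and 7) and females at 5 weeks (6 and 6). The question is which genes answer the injury, and whether time and sex change the answer. The opposite ganglion comes from an injured animal too, and no ganglion of an uninjured animal is used here; the labels used here give no strain or age.

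Depth ran from 16.9 to 33.5 M counts over the 62 libraries. The injury gene Atf3, a transcription factor induced in axotomized neurons, was higher on the injured side in every arm, by 4.46 to 5.27 on the log2 scale, which checks the side labels. The neuronal markers summed to between 13232 and 18096 counts in 1000000 (CPM) in every library, so the neuronal content named by the tissue label was present. On the injured side 5 of 6 macrophage markers were higher at 1 week in both sexes and in females at 5 weeks, and 2 of 6 in males at 5 weeks, while all 5 markers of myelinating Schwann cells were lower at 1 week in both sexes. Of 7 neuronal markers 4 were lower at 1 week in both sexes, while 2 were higher in males and 3 in females. At 5 weeks 2 neuronal markers were higher and 3 lower in both sexes, and at 24 h 1 was higher. Of 5 satellite glia markers 2 were higher and 3 lower in males at 1 week, and 1 and 1 in females. At 5 weeks 1 satellite glia marker was higher and 1 lower in males, and 2 were higher in females. All 4 B cell and all 3 erythrocyte markers were higher in males at 1 week, and 3 of 5 endothelial, 3 of 5 mural and 2 of 4 fibroblast markers in females at 5 weeks. At 1 week 1 endothelial marker was lower in both sexes, and 1 B cell and 1 mural marker in females. In females at 5 weeks 1 Schwann cell marker was lower, and at 24 h 1 fibroblast marker. Over all genes 14.1%, 47% and 34.7% passed the same test in males at 24 h, 1 week and 5 weeks. In females 45.7% and 42% passed at 1 and 5 weeks. Marker counts near these shares are no result about a cell type. The macrophage list summed to 51.8 to 168 CPM in injured libraries at 1 and 5 weeks, against 22.5 to 101 CPM in opposite libraries, with none of its genes at 0; the Schwann list summed to 11607 to 17710 CPM in injured libraries at 1 week, against 15243 to 29881 CPM. The ribosomal RNA share was 0.970% on the injured and 2.25% on the opposite side in females at 1 week, without overlap, and close between sides in the other arms. The part of the cell markers in the receptor values was not tested. In whole ganglia, fewer cells of a type and less RNA per cell cannot be told apart. For males at 1 and 5 weeks no label says that the libraries came from separate animals, so p-values there cover only the spread between libraries.

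As background, all 10 proteins are G protein-coupled receptors. The NPY receptors, Galr1 and Sstr2 couple to inhibitory Gi/o proteins, which lower cyclic AMP and can open inward-rectifier potassium channels. Galr2 and Cckbr signal mainly through Gq and phospholipase C, and the VIP and PACAP receptors through Gs and adenylyl cyclase. Peripheral nerve injury is known to induce galanin, NPY, VIP and PACAP in sensory neurons.

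Per kb of exon, the level of Npy1r was highest in each of the 10 groups, and that of Vipr1 lowest. On the opposite side Npy1r had mean levels of 9.56 to 11.9 CPM per kb in the 5 arms, and its lowest library lay above the highest library of the next receptor in each arm. Npy2r and Galr2 came next with 2.2 to 3.01 CPM per kb; their libraries overlapped in every opposite-side group except males at 5 weeks. Then followed Galr1 (1.36 to 2.21 CPM per kb) and Vipr2 (1.10 to 1.31 CPM per kb), whose libraries overlapped in every opposite-side group. Adcyap1r1, Sstr2 and Npy5r lay between 0.570 and 1.03 CPM per kb; their libraries overlapped, except that Adcyap1r1 lay wholly above Npy5r at 1 week in males and in females. Cckbr had only 0.169 to 0.286 CPM per kb on that side, and Vipr1 0.0193 to 0.0532 CPM per kb. On the injured side Cckbr stood at 4.17 to 6.92 CPM per kb at 1 and 5 weeks, against 5.99 to 8.10 CPM per kb for Npy2r, with overlapping libraries of both in each of these 4 arms, while at 24 h its level was 0.371 CPM per kb and its libraries overlapped with those of Sstr2 and Npy5r.

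**Figure D1:**
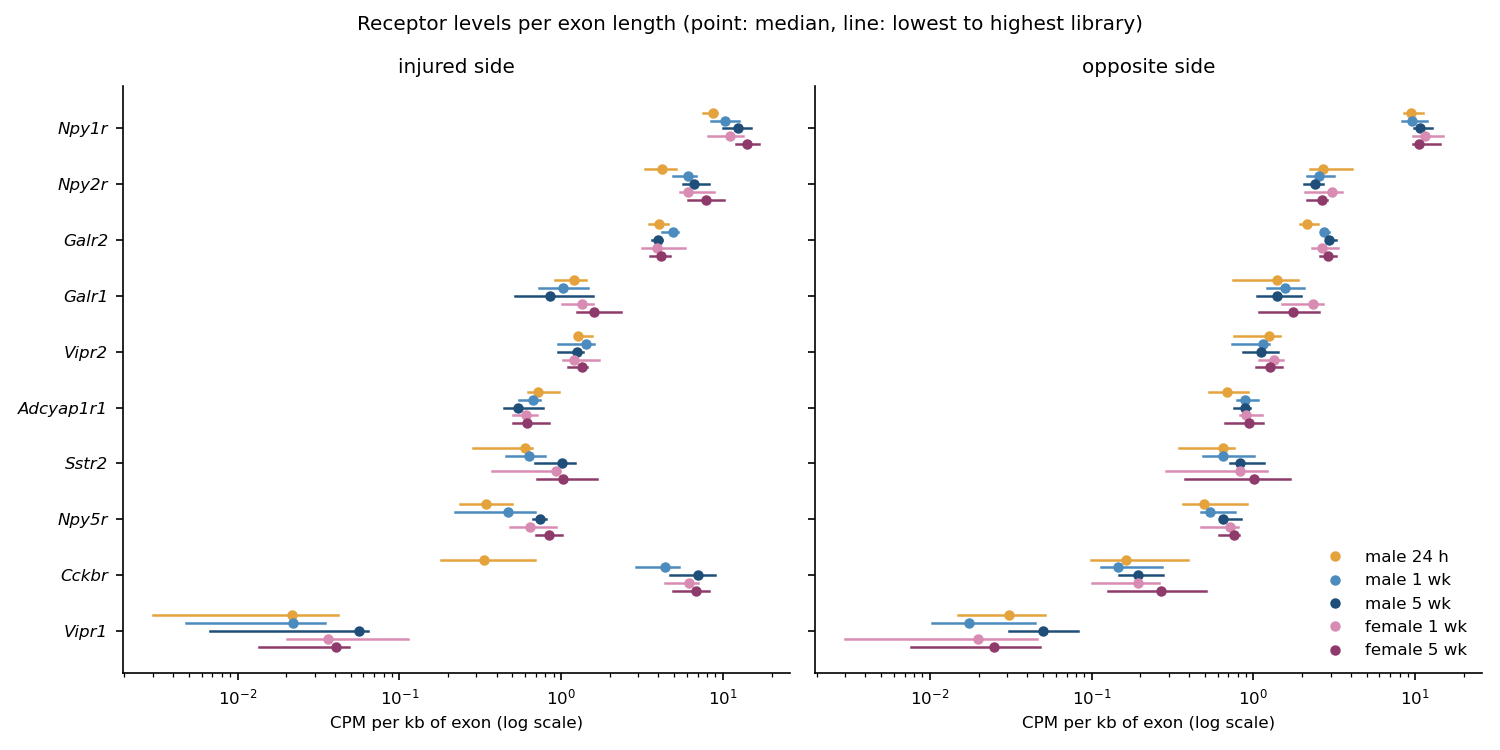
Levels of the 10 receptors in CPM per kb of exon on a log scale, injured side in the left panel and opposite side in the right, with 1 colour per arm; points are medians and lines run from the lowest to the highest library, and a line that ends at the far left stands for a library with 0 counts. Cckbr had 4.17 to 6.92 CPM per kb on the injured side at 1 and 5 weeks, against 0.169 to 0.286 CPM per kb on the opposite side.

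The RefSeq sequences around the annotated gene starts are shown for the 3 receptors whose transcripts were higher on the injured side in all 5 arms (Cckbr, Npy2r and Galr2) and for Sstr2, the only one of the 10 whose window held a searched motif. The windows run from 250 bases before to 50 bases after the start in assembly GRCr8, and all 10 receptors had one. They lie at chr1:169183328-169183627 (plus strand) for Cckbr, chr2:170203051-170203350 (minus strand) for Npy2r, chr10:102013376-102013675 (plus strand) for Galr2 and chr10:99163103-99163402 (plus strand) for Sstr2. Capitals mark the motif found.
Cckbr: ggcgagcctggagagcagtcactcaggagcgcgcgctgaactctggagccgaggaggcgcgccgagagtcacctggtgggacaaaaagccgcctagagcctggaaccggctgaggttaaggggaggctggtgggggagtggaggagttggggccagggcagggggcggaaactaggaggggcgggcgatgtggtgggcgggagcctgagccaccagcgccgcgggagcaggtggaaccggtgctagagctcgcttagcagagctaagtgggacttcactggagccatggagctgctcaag
Npy2r: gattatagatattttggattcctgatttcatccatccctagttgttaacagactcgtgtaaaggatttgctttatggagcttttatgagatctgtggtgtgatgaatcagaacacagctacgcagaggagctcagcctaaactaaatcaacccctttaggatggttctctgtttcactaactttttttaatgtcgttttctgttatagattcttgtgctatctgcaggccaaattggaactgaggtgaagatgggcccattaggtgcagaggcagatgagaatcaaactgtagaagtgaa
Galr2: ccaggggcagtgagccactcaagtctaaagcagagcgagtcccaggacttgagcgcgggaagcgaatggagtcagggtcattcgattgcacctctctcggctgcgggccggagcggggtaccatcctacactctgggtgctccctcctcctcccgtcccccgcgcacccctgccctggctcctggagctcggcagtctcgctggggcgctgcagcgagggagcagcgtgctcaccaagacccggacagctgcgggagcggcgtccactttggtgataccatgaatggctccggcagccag
Sstr2: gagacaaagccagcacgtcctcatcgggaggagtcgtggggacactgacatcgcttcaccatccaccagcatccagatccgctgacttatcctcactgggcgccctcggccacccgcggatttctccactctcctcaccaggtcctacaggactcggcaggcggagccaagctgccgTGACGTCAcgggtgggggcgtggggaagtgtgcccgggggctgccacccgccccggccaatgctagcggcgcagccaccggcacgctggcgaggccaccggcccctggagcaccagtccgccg
The binding motifs of AP-1 factors, which include injury-induced proteins, and of cyclic AMP responsive factors were searched on both strands, AP-1 as TGACTCA, which is TGAGTCA on the other strand, and the cyclic AMP response element (CRE) as TGACGTCA, which reads the same on both strands; neither motif contains the other. AP-1 was in 4.631% and CRE in 1.829% of the 33469 promoter windows of the same length. Among the 10 receptors only Sstr2 held one, a CRE that begins 73 bases before the start. The windows of Cckbr, Npy2r and Galr2 held neither string of letters. Their base composition differed: 66.7% G or C with 19 CpG dinucleotides for Cckbr, 66.3% with 22 for Galr2 and 40.0% with 3 for Npy2r, against a median of 51.7% and 7 over all windows. The Npy2r window has an ATG at the first base after the annotated start. Its annotated start may therefore be that of the coding sequence and not of the transcript, which was not tested. The composition and the lack of motifs in that window may then not be those of a promoter.

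Cckbr, Npy2r and Galr2 were higher on the injured side in all 5 arms, Adcyap1r1 was lower at 1 and 5 weeks in both sexes, and Galr1 was lower at 1 week in both sexes. Npy1r was called higher in females at 5 weeks and Npy5r lower in males at 24 h, each in 1 of the 5 arms. Vipr2 and Sstr2 passed the test in no arm, and Vipr1 was not tested. By edgeR's quasi-likelihood test with Benjamini-Hochberg adjusted p under 0.05, 3 receptors were higher and 1 lower of 9 tested in males at 24 h, where 8.23% of all genes tested were higher and 5.9% lower (14.1% in either direction). The 24 h count of 4 receptors was 2 with the arm fitted alone and 3 with limma-voom or without the filter on low counts. It was 2 to 4 with 1 library left out. Males had 3 higher and 2 lower at 1 week (all genes: 23.6% and 23.4%) and 3 higher and 1 lower at 5 weeks (16% and 18.7%). Females had 3 higher and 2 lower at 1 week (all genes: 23.9% and 21.8%) and 4 higher and 1 lower at 5 weeks (22.9% and 19.1%). In either direction 47% and 34.7% of all genes passed in males at 1 and 5 weeks, and 45.7% and 42% in females, so the share of receptors called at these times was near that of all genes and is no result about the receptors. The median log2 fold change over the 9 receptors lay between -0.09 and 0.17 in the 5 arms, and that of all genes between -0.01 and 0.01.

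**Figure D2:**
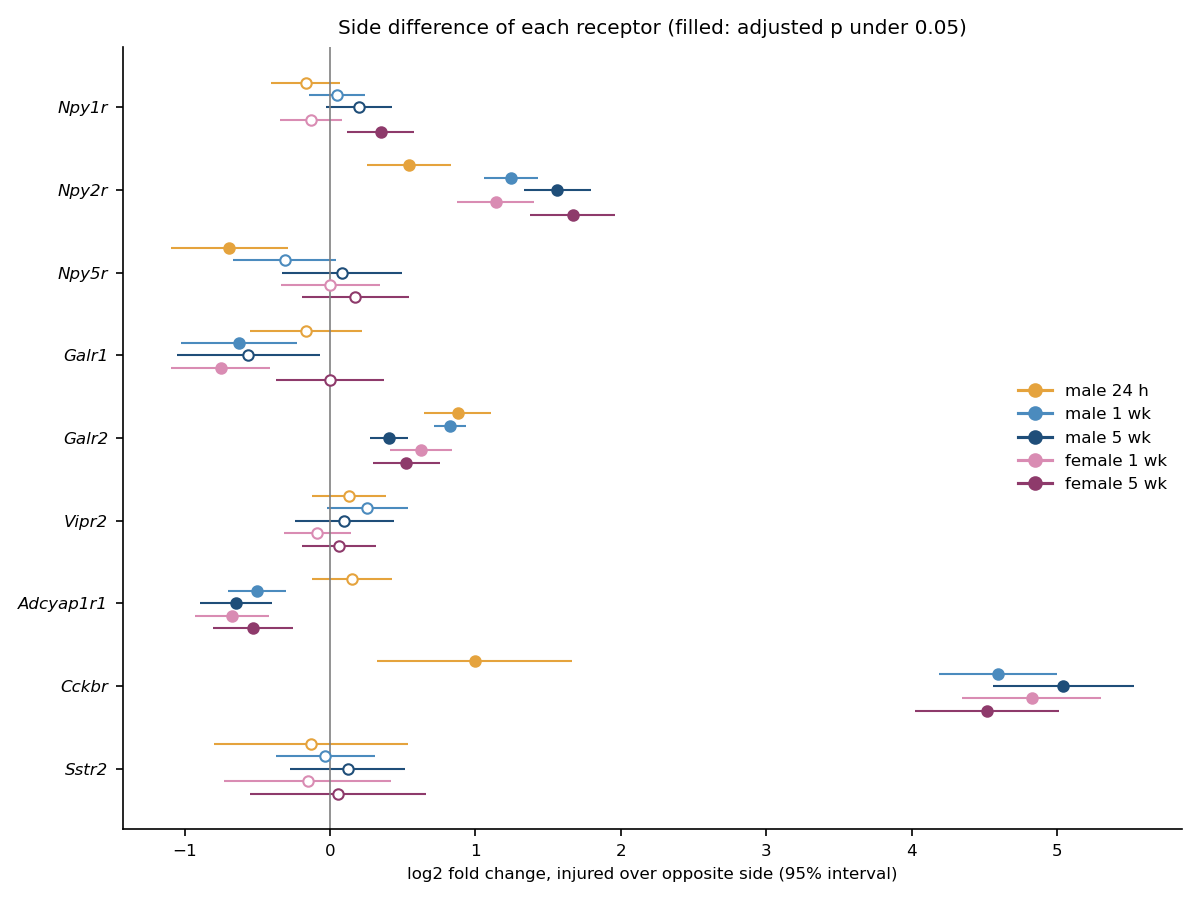
Log2 fold change of the injured over the opposite side with its 95% interval for the 9 tested receptors, 1 row per receptor and 1 colour per arm; filled points have an adjusted p under 0.05. Cckbr stands apart at 4.52 to 5.04 at 1 and 5 weeks, Npy2r and Galr2 lie right of 0 in all arms, and Adcyap1r1 lies left of 0 at 1 and 5 weeks.

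NPY receptors come first. Npy2r (gene ID 66024; chromosome 2, 167901999 to 167912165, minus strand, mRatBN7.2) encodes the Y2 receptor, which on nerve endings restrains transmitter release. In males at 24 h it had 14.1, 18.1 and 21.9 CPM (lowest, median and highest library) on the injured side, against 9.56, 11.6 and 17.2 CPM on the opposite side. At 1 week males had 21.0, 26.1 and 29.1 CPM on the injured side, against 9.20, 10.8 and 13.5 CPM on the opposite side. The sides overlapped at 24 h and no longer at 1 week, and the injured ganglion was the higher one in every numbered pair of both arms. In males at 5 weeks the injured ganglia had 24.2, 28.0, 33.2, 35.2 and 28.3 CPM, against 10.3, 9.47, 10.5, 11.4 and 8.80 CPM in the opposite ganglia. Females had 23.1, 25.9 and 37.7 CPM on the injured and 8.87, 13.0 and 15.0 CPM on the opposite side at 1 week. Females at 5 weeks had 25.8, 33.7 and 43.2 CPM on the injured side, against 9.18, 11.3 and 12.1 CPM on the opposite side. All libraries of the injured side lay above all of the opposite side in these 3 arms.

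The log2 fold change of Npy2r was 0.54 (SE 0.143, adjusted p = 0.00713) in males at 24 h, 1.24 (SE 0.0916, adjusted p = 5.81e-11) in males at 1 week and 1.56 (SE 0.111, adjusted p = 1.31e-10) in males at 5 weeks. In females it was 1.14 (SE 0.130, adjusted p = 4.12e-09) at 1 week and 1.67 (SE 0.143, adjusted p = 1.73e-11) at 5 weeks. As folds these are 1.46, 2.37 and 2.95 in males and 2.2 and 3.18 in females. All alternatives run, including each library left out in turn, gave the same 5 calls.

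Npy1r (gene ID 29358; chromosome 16, 23037788 to 23047330, minus strand) encodes the Y1 receptor, found on cell bodies of small sensory neurons. It averaged 44.9 ± 5.30 CPM on the injured and 35.3 ± 5.54 CPM on the opposite side in females at 5 weeks (SD, n = 6 each). It passed the test in that arm and in no other, with a log2 fold change of 0.35 (SE 0.115, adjusted p = 0.0145), higher in 6 of 6 pairs although the sides overlapped. Against the opposite ganglia of females at 1 week the adjusted p was 0.0774, within a range of 0.00117 to 0.0774 over the alternatives. In the other 4 arms its log2 fold change lay between -0.17 and 0.20, and the 95% intervals all held 0. In males at 5 weeks (0.20, adjusted p = 0.182) it passed without injured library 4 (adjusted p = 0.0452) and against the opposite ganglia of the other week (0.00623; alternatives up to 0.223).

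Npy5r (gene ID 25340; chromosome 16, 23055427 to 23063384, plus strand), the Y5 receptor, lies next to Npy1r on the other strand, 8096 bases away. Npy5r had low counts, 14 to 60 per library. In males at 24 h it had 0.604, 0.873 and 1.26 CPM on the injured side, against 0.936, 1.26 and 2.32 CPM on the opposite side. It was lower there by a log2 fold change of -0.69 (SE 0.198, adjusted p = 0.0140), in 5 of 6 pairs and with overlapping sides. That call was lost when the arm was fitted alone (adjusted p = 0.114; alternatives 0.0116 to 0.114) and without opposite library 2, opposite library 5 or injured library 4 (0.0506 to 0.0713). At 1 and 5 weeks its log2 fold changes were -0.31 and 0.08 in males and 0.00 and 0.17 in females, none called; the value in males at 1 week passed against the opposite ganglia of the other week (-0.61, adjusted p = 0.00993) and without injured library 6 (0.0373).

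Of the galanin receptors, Galr2 was higher and Galr1 lower on the injured side at 1 week. Galr2 (gene ID 29234; chromosome 10, 101513689 to 101517176, plus strand) was the only receptor whose sides did not overlap at 24 h. Males at 24 h had 12.2, 14 and 16.1 CPM (lowest, median and highest) on the injured side, against 6.80, 7.45 and 8.70 CPM on the opposite side. Males at 1 week had 14.6, 17.1 and 18.5 CPM on the injured side, against 9.09, 9.48 and 10.3 CPM on the opposite side. In males at 5 weeks the injured ganglia had 13.7, 14.4, 14.8, 12.6 and 13.9 CPM, against 11.1, 11.2, 10.2, 10.1 and 9.83 CPM in the opposite ganglia. The sides did not overlap in any of these arms, and the gap between them was narrowest at 5 weeks. Females had 11.0, 13.6 and 20.3 CPM on the injured and 8.07, 9.32 and 11.6 CPM on the opposite side at 1 week. At 5 weeks females had 12.4, 14.4 and 16.4 CPM on the injured side, against 9.002, 10.04 and 11.2 CPM on the opposite side. The sides overlapped in females at 1 week only.

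The log2 fold change of Galr2 was 0.88 (SE 0.115, adjusted p = 4.54e-07) in males at 24 h, 0.83 (SE 0.0533, adjusted p = 5.52e-12) at 1 week and 0.40 (SE 0.0645, adjusted p = 2.15e-05) at 5 weeks. In females it was 0.63 (SE 0.104, adjusted p = 4.60e-06) at 1 week and 0.52 (SE 0.113, adjusted p = 0.000273) at 5 weeks. The injured ganglion was higher in every pair of every arm, and no alternative ended a call.

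Galr1 (gene ID 50577; chromosome 18, 75772021 to 75787577, minus strand) was lower on the injured side at 1 week. Males had 1.65, 2.31 and 3.30 CPM on the injured side, against 2.72, 3.54 and 4.65 CPM on the opposite side. Females had 2.27, 3.05 and 3.55 CPM on the injured side, against 3.40, 5.23 and 6.03 CPM on the opposite side. The sides overlapped in both sexes, but the injured ganglion was the lower one in 7 of 7 pairs each time. The log2 fold change was -0.63 (SE 0.194, adjusted p = 0.00989) in males and -0.75 (SE 0.169, adjusted p = 0.000336) in females.

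At 5 weeks male injured ganglia had 3.14, 1.93, 3.55, 1.17 and 1.66 CPM of Galr1, against 2.97, 3.14, 4.41, 2.38 and 3.82 CPM in the opposite ganglia. The injured ganglion was lower in 4 of 5 pairs, by a log2 fold change of -0.56 (SE 0.239, adjusted p = 0.0722). With the replicate number as a block this value was -0.60 with an adjusted p of 0.00459; the alternatives ran from 0.00459 to 0.165. It also passed with limma-voom (0.0394), against the opposite ganglia of the other week (0.0166) and without injured library 1, injured library 3 or opposite library 4 (adjusted p = 0.0127 to 0.0435). Females at 5 weeks averaged 3.97 ± 0.989 CPM on the injured and 3.98 ± 1.11 CPM on the opposite side (SD, n = 6 each), and 3 of 6 pairs went each way. In males at 24 h the log2 fold change was -0.17 (adjusted p = 0.632).

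Cckbr (gene ID 25706; chromosome 1, 159771733 to 159781738, plus strand) encodes the cholecystokinin B receptor, which also binds gastrin, and had the widest side difference of the 10. At 24 h male injured ganglia had 0.388, 0.721 and 1.48 CPM, against 0.214, 0.352 and 0.842 CPM in opposite ganglia. At 1 week male injured ganglia had 6.22, 9.38 and 11.5 CPM, against 0.246, 0.312 and 0.583 CPM in opposite ganglia. At 5 weeks the 5 male injured ganglia had 10.1, 14.6, 15.3, 19.3 and 15.0 CPM, against 0.594, 0.344, 0.418, 0.317 and 0.559 CPM in opposite ganglia. The sides overlapped at 24 h, and from 1 week on the lowest injured ganglion was far above the highest opposite one. Female injured ganglia had 9.44, 13.2 and 15.1 CPM at 1 week, against 0.217, 0.417 and 0.559 CPM in opposite ganglia. At 5 weeks they had 10.5, 14.7 and 17.5 CPM, against 0.271, 0.578 and 1.09 CPM. Neither female arm had any overlap.

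**Figure D3:**
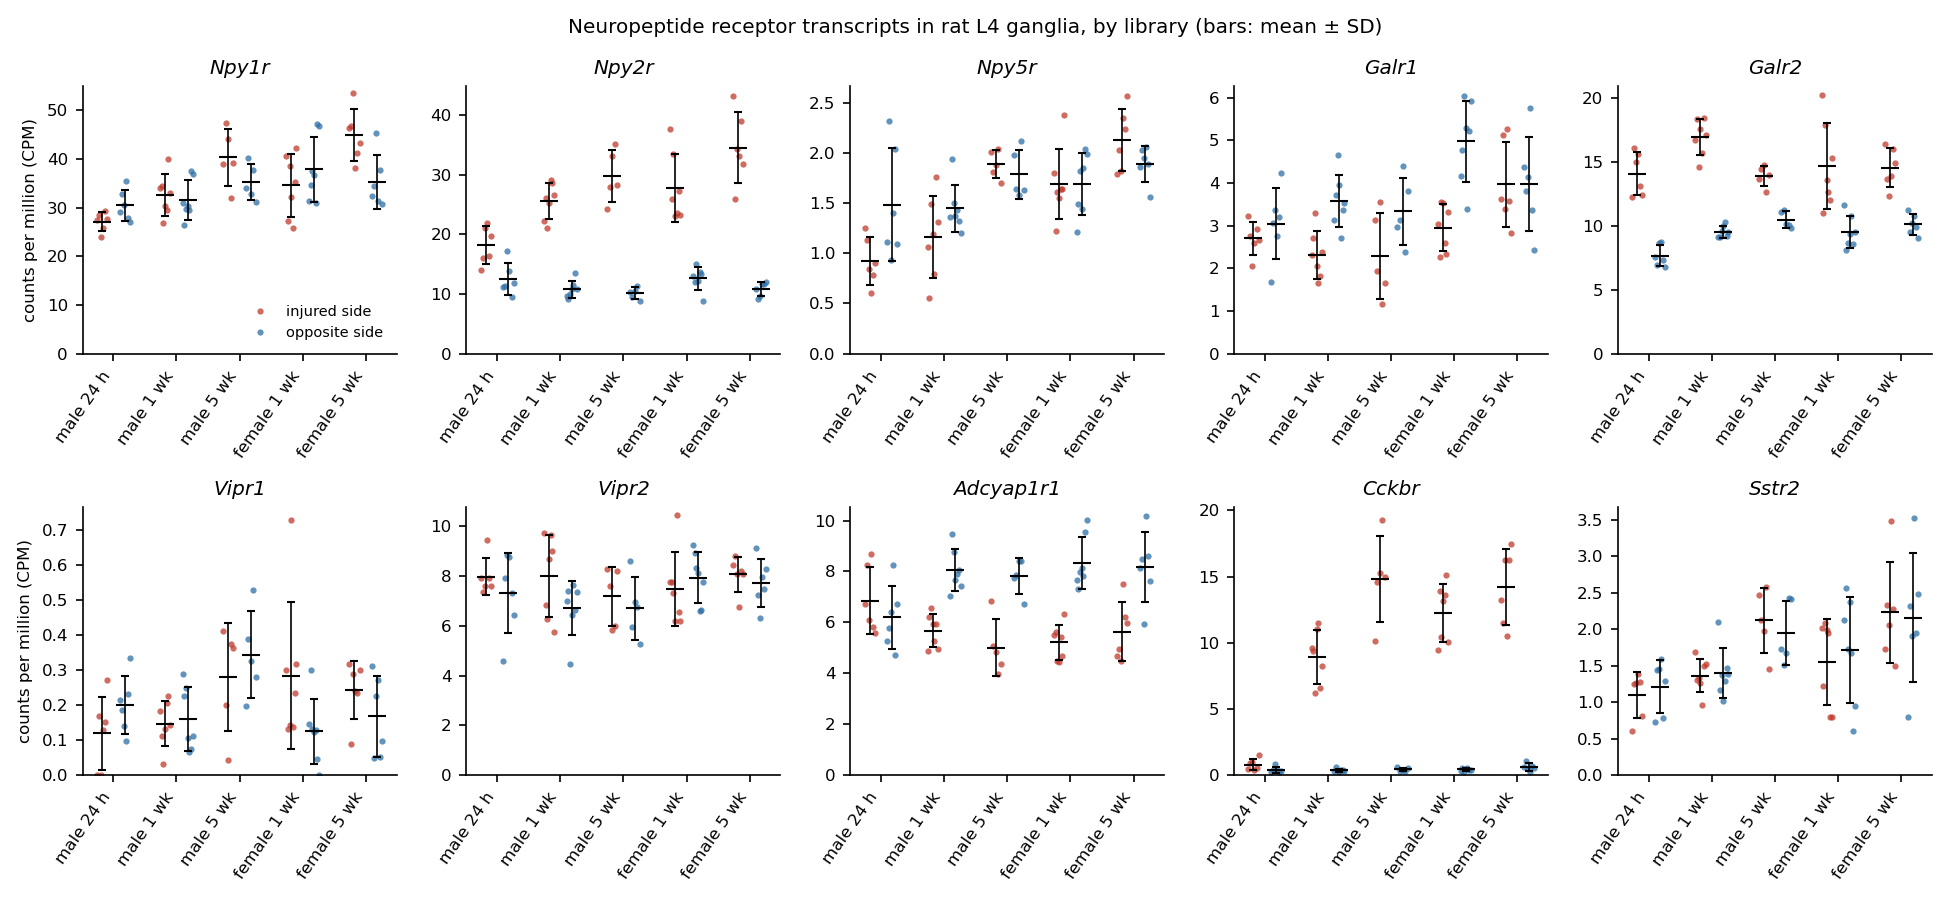
CPM of the 10 receptors in each of the 62 libraries, 1 panel per receptor with its own axis from 0, the injured side (red) left of the opposite side (blue) in each arm; black marks are mean ± SD. Cckbr is near 0 on the opposite side and above 6 CPM in every injured ganglion at 1 and 5 weeks, while Vipr2 and Sstr2 overlap between sides throughout.

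The log2 fold change of Cckbr was 4.60 (SE 0.196, adjusted p = 7.39e-15) in males at 1 week and 5.04 (SE 0.235, adjusted p = 1.46e-13) at 5 weeks. In females it was 4.82 (SE 0.235, adjusted p = 1.49e-18) at 1 week and 4.52 (SE 0.244, adjusted p = 9.34e-17) at 5 weeks. These are folds of 24.2, 33, 28.3 and 22.9. At 24 h the value was 0.99 (SE 0.329, adjusted p = 0.0369), with 6 of 6 pairs higher. That early call was lost with limma-voom (adjusted p = 0.187), without the filter on low counts (0.0636) and with the arm fitted alone (0.128), within 0.0109 to 0.187 over the alternatives. It was also lost without any 1 of injured libraries 2, 3 and 6 and opposite libraries 1, 2, 4, 5 and 6 (adjusted p = 0.0572 to 0.168); the log2 fold change was 0.71 without injured library 6.

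A long noncoding RNA gene on the opposite strand, LOC108349007 (chromosome 1, 159756929 to 159773172, minus strand), overlaps Cckbr over 1440 bases at the start of the receptor gene; it was looked at after the values of Cckbr were seen. It averaged 2.79 ± 0.713 and 3.54 ± 1.01 CPM in male injured ganglia at 1 and 5 weeks, against 0.0615 ± 0.0356 and 0.0589 ± 0.0420 CPM in opposite ganglia (SD, n = 7 and 5). Female injured ganglia averaged 4.74 ± 1.57 and 3.91 ± 0.744 CPM, against 0.0493 ± 0.0462 and 0.0696 ± 0.124 CPM in opposite ganglia (SD, n = 7 and 6). Its log2 fold change was 2.88, 5.42 and 5.84 in males at 24 h, 1 week and 5 weeks, and 6.42 and 5.64 in females at 1 and 5 weeks, with adjusted p from 6.76e-15 to 0.00307. Per 100 counts of Cckbr the injured side held 23.9 to 41.3 counts of this RNA over the 5 arms and the opposite side 9.80 to 16.4. The library kit keeps the strand, but the strand setting of the counting is not given in the sources used here, so reads of the shared stretch cannot be told apart. All 62 deposited Cckbr counts were whole numbers.

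The receptors for VIP and PACAP raise cyclic AMP. Adcyap1r1 (gene ID 24167; chromosome 4, 84593558 to 84642700, plus strand) encodes PAC1, the receptor selective for PACAP. At 24 h it averaged 6.86 ± 1.31 CPM in male injured ganglia and 6.2 ± 1.25 CPM in opposite ganglia (SD, n = 6 each), a log2 fold change of 0.15 (adjusted p = 0.530). At 1 week male injured ganglia had 4.87, 5.93 and 6.57 CPM, against 7.02, 7.90 and 9.46 CPM in opposite ganglia. At 5 weeks they had 6.85, 5.06, 4.82, 3.95 and 4.36 CPM, against 7.73, 7.88, 8.40, 8.40 and 6.71 CPM. The sides did not overlap at 1 week, and at 5 weeks injured library 1 lay just above the lowest opposite library. Female injured ganglia had 4.46, 5.41 and 6.33 CPM at 1 week, against 7.30, 7.99 and 10.02 CPM in opposite ganglia. At 5 weeks they had 4.50, 5.46 and 7.51 CPM, against 5.95, 8.32 and 10.2 CPM. The sides were apart at 1 week and overlapped at 5 weeks, and the injured ganglion was lower in every pair at both times.

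The log2 fold change of Adcyap1r1 was -0.50 (SE 0.0972, adjusted p = 0.000140) in males at 1 week and -0.65 (SE 0.119, adjusted p = 0.000126) at 5 weeks. In females it was -0.68 (SE 0.126, adjusted p = 2.69e-05) at 1 week and -0.53 (SE 0.136, adjusted p = 0.00178) at 5 weeks. With the ribosomal RNA share as a covariate the female value at 1 week was -0.60 with an adjusted p of 0.0555, the highest among its alternatives, whose lowest was 7.05e-07.

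Vipr2 (gene ID 29555; chromosome 6, 136996664 to 137070599, plus strand) encodes VPAC2, which binds VIP and PACAP alike. Its means lay between 7.18 and 8.07 CPM on the injured side and between 6.71 and 7.94 CPM on the opposite side. Its log2 fold changes ran from -0.09 to 0.26; the highest, in males at 1 week, had a 95% interval of -0.02 to 0.53 (adjusted p = 0.127). Vipr1 (gene ID 24875; chromosome 8, 121303739 to 121339587, plus strand), encoding VPAC1, had 0 to 15 counts per library and a mean of at most 0.344 CPM in any group. It was left out of the test, and its sides overlapped in each arm.

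Sstr2 (gene ID 54305; chromosome 10, 98664204 to 98671370, plus strand) encodes a receptor that mediates the inhibitory action of somatostatin on sensory neurons. It averaged 1.10 to 2.23 CPM on the injured side and 1.21 to 2.16 CPM on the opposite side over the 5 arms, with log2 fold changes of -0.16 to 0.12 and intervals from -0.80 to 0.66 at the widest. It had 11 to 73 counts per library, so these intervals are wide, and a p above the threshold does not show that it did not change. The gene lies within the span of Slc39a11 on the other strand, which was called in no arm.

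Receptors whose libraries did not overlap between sides numbered 1, 4 and 3 of 9 in males at 24 h, 1 week and 5 weeks and 3 and 3 in females at 1 and 5 weeks. Of all genes tested 5.45%, 22.1%, 21%, 20.9% and 21.8% did so in these arms.

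The side difference itself was compared between times. Between 24 h and 1 week in males the difference grew for Cckbr by 3.60 (SE 0.428, adjusted p = 8.08e-09) and for Npy2r by 0.70 (SE 0.176, adjusted p = 0.00224) on the log2 scale, and fell for Adcyap1r1 by 0.65 (SE 0.171, adjusted p = 0.00335). These are 3 of 9 receptors, where 23% of all genes passed. The arms at 24 h and 1 week lie in different count tables, so only side differences within an arm enter, and time and table cannot be told apart. For Galr2 the difference of the 2 side effects was -0.05 (95% interval -0.31 to 0.21).

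Between 1 and 5 weeks in males only Galr2 passed: its side difference at 5 weeks was smaller than at 1 week by a log2 value of -0.42 (SE 0.0836, adjusted p = 0.0233), in a comparison in which 0.211% of all genes passed (40 genes, and 497 with the replicate block). The call was lost with limma-voom (adjusted p = 0.0538), without the filter (0.0777; alternatives 0.0173 to 0.0777) and without any 1 of 11 of the 24 libraries (up to 0.0856). These were opposite libraries 1, 3, 4 and 6 and injured libraries 2 and 6 at 1 week, and opposite libraries 1 and 2 and injured libraries 1, 4 and 5 at 5 weeks. In females the same difference was -0.10 (95% interval -0.41 to 0.21).

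In females the side difference at 5 weeks was higher than at 1 week for Npy1r, by 0.48 (SE 0.157, adjusted p = 0.0361), and for Galr1, by 0.75 (SE 0.249, adjusted p = 0.0378). These are 2 of 9 receptors, where 13.5% of all genes passed. Npy1r was then slightly higher and Galr1 level with the opposite side, after log2 fold changes of -0.13 and -0.75 at 1 week. For Npy2r the difference was 0.53 (SE 0.192, adjusted p = 0.0618); with the replicate number as a block its adjusted p was 0.00283, the lowest of a range up to 0.106. The Npy1r call was lost without the filter (adjusted p = 0.0669; alternatives 0.00348 to 0.0669). Single libraries mattered for all 3 receptors: 12 of 26 left out in turn ended the Npy1r call (adjusted p = 0.0533 to 0.0742) and 11 of 26 the Galr1 call (0.0524 to 0.0881), and 4 gave a call of Npy2r (0.0194 to 0.0422). For Npy1r these were opposite libraries 6 and 7 and injured libraries 2, 4 and 5 at 1 week, and opposite libraries 1, 2, 4 and 6 and injured libraries 1, 2 and 3 at 5 weeks. For Galr1 they were opposite libraries 3, 4 and 7 and injured libraries 2, 5 and 6 at 1 week, and opposite libraries 2, 5 and 6 and injured libraries 2 and 4 at 5 weeks. For Npy2r they were opposite library 7 and injured libraries 1 and 3 at 1 week and injured library 2 at 5 weeks.

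**Figure D4:**
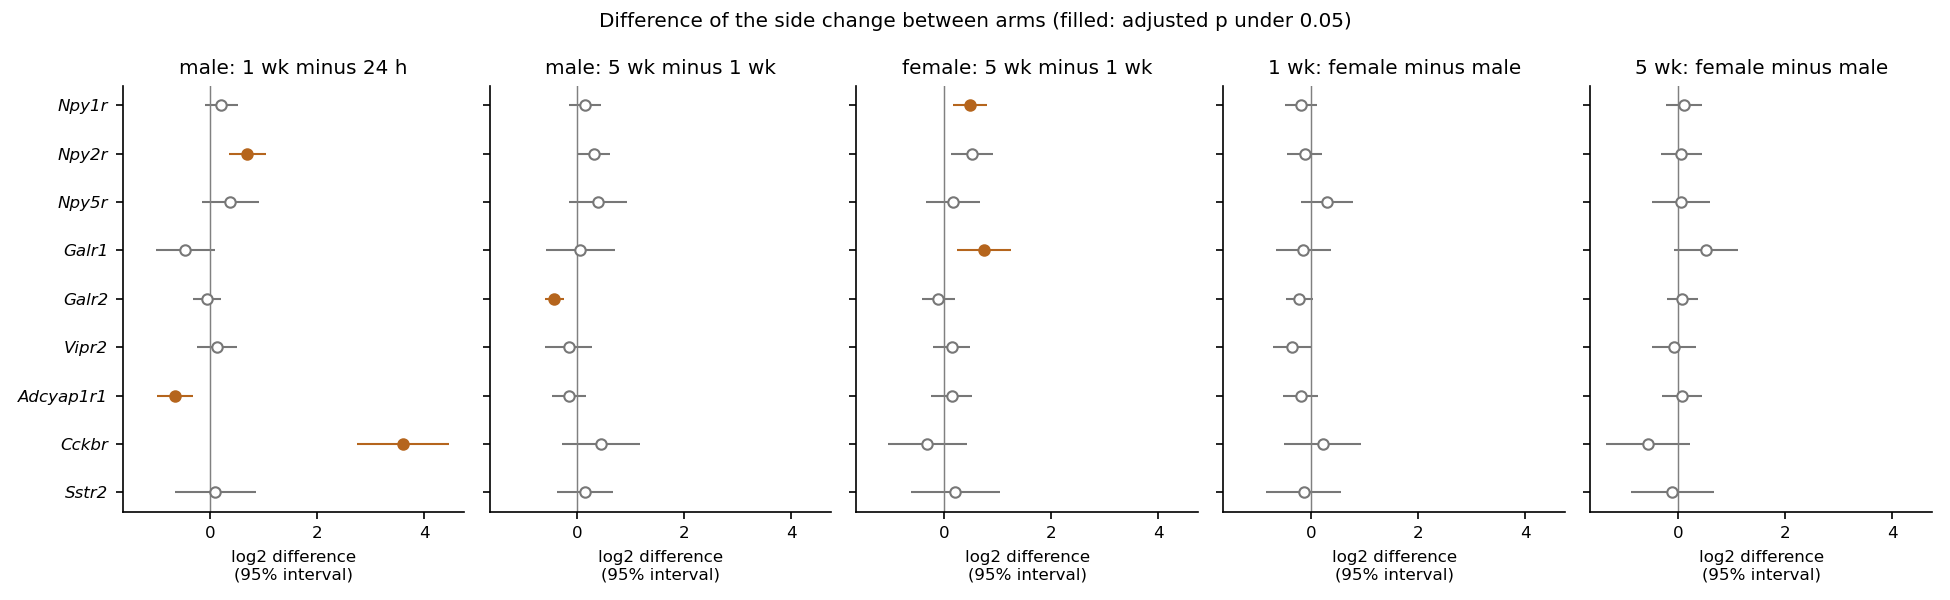
Differences between arms in the injured over opposite log2 fold change, with 95% intervals, for the 9 tested receptors; each panel is 1 pair of arms and filled points have an adjusted p under 0.05. Cckbr at 3.60 between 1 week and 24 h in males is the widest, and no receptor is filled in the 2 panels that set females against males.

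The sexes did not differ past the threshold for any of the 9 receptors at 1 week, where 1.11% of all genes passed, or at 5 weeks, where 2.11% did; with the replicate block 517 and 697 genes passed, in place of 214 and 405, and none of the receptors. Female minus male differences at 1 week lay between -0.35 and 0.30, and the one farthest from 0 was Vipr2 at -0.35 (unadjusted p = 0.05005, adjusted p = 0.442). At 5 weeks they lay between -0.56 for Cckbr (95% interval -1.34 to 0.22) and 0.52 for Galr1 (95% interval -0.08 to 1.12). At an unadjusted p under 0.05 edgeR gave 0 at either time, and limma-voom called 0. A p above the threshold does not show that the sexes answered alike. Female and male libraries of 1 and 5 weeks lie in different count tables, so sex and table cannot be told apart. The same holds for the sequencing run, if the tables differed in it.

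On the opposite side none of the 9 receptors passed edgeR's test at 5 weeks over 1 week in males, where 13.5% of all genes passed, or in females, where 10.7% did. At an unadjusted p under 0.05 there were 2 in males, Sstr2 and Galr2, and 0 in females. The nearest was Sstr2 in males, with a log2 difference of 0.48 at 5 weeks over 1 week (SE 0.179, adjusted p = 0.0760), which passed without opposite library 1 of 1 week (adjusted p = 0.0254). When each male arm was set against the opposite ganglia of the other week, Sstr2 was called lower at 1 week (-0.51, adjusted p = 0.0204) and higher at 5 weeks (0.60, adjusted p = 0.00719). Galr2 in males differed by 0.14 (unadjusted p = 0.0317, adjusted p = 0.136). Time, age and harvest cannot be told apart in these values.

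Genes of the peptides that bind these receptors were read beside them. Of 12 ligand genes 6 had enough counts to be tested. Of these, 3 were higher in males at 24 h, and 5 were higher and 1 lower in each of the other 4 arms. In males at 24 h, 1 week and 5 weeks 14.1%, 47% and 34.7% of all genes passed in either direction. In females at 1 and 5 weeks 45.7% and 42% did. The median log2 fold change of the 6 ligands was 0.89 at 24 h and 3.77 to 4.37 later. Npy, the ligand of all 3 NPY receptors, averaged 281 ± 63.8 CPM in male injured ganglia at 1 week and 368 ± 124 CPM at 5 weeks, against 0.735 ± 0.297 and 1.46 ± 0.484 CPM in opposite ganglia (SD, n = 7 and 5). In females Npy averaged 342 ± 46.0 CPM at 1 week and 299 ± 67.3 CPM at 5 weeks in injured ganglia, against 1.75 ± 1.61 and 0.679 ± 0.361 CPM in opposite ganglia (SD, n = 7 and 6). The log2 fold change of Npy was 7.61 to 8.74 in these 4 arms and -0.55 (adjusted p = 0.570) at 24 h, when Npy2r was already higher. Npy1r, the most abundant of its receptors, changed by 0.35 at most.

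Gal, which encodes galanin, was higher by 1.15 at 24 h and by 3.91 to 4.89 later, a time course in which Galr2 stood at 0.40 to 0.88 and Galr1 at or below 0. Adcyap1, encoding PACAP, averaged 300 ± 102 CPM in male injured ganglia at 24 h, against 51.7 ± 5.22 CPM in opposite ganglia (SD, n = 6 each), and its log2 fold change was 2.54 at 24 h and 1.42 to 2.15 later. Its receptor Adcyap1r1 was lower in the same 4 later arms. Vip was higher by 3.01 at 24 h and by 7.67 to 8.77 later, while Vipr2 was called in no arm. The 24 h calls of Gal and Vip were lost with limma-voom (adjusted p = 0.101 and 0.225), the highest over their alternatives, whose lowest were 0.000286 and 3.77e-06.

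Cck, encoding cholecystokinin, was scarce even on the injured side. It averaged 1.44 ± 0.331 and 3.11 ± 1.96 CPM in male injured ganglia at 1 and 5 weeks, against 0.226 ± 0.0594 and 0.318 ± 0.124 CPM in opposite ganglia (SD, n = 7 and 5). Female injured ganglia averaged 4.38 ± 1.94 and 3.61 ± 2.04 CPM, against 0.281 ± 0.145 and 0.246 ± 0.124 CPM in opposite ganglia (SD, n = 7 and 6). Its log2 fold changes of 2.65 to 3.92 ran beside the Cckbr values of 4.52 to 5.04. Sst, encoding somatostatin, was the only ligand called lower, by log2 fold changes of -0.83 to -0.69 in the 4 later arms; the call was lost in males at 5 weeks and females at 5 weeks with the arm fitted alone (adjusted p = 0.0675 and 0.0691) and against the opposite ganglia of the other week (0.960 and 0.107), and in females at 1 week with the ribosomal RNA share as a covariate (0.144).

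**Figure D5:**
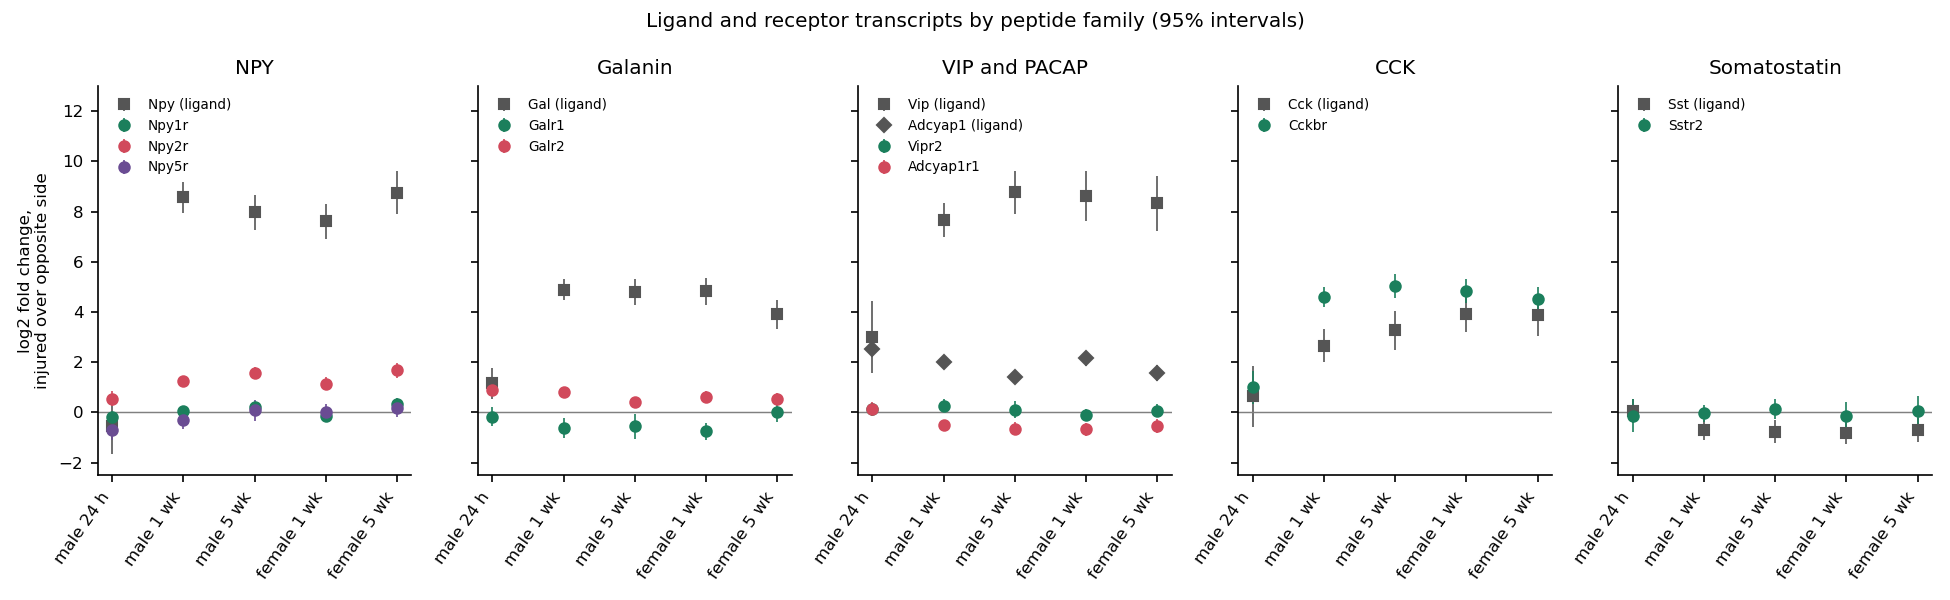
Log2 fold changes of ligands (grey squares and diamonds) and receptors (coloured circles) for the 5 peptide families, injured over opposite side with 95% intervals, arms on the x axis. Npy and Vip reach 7.61 to 8.77 at 1 and 5 weeks, while Npy1r, Npy2r, Npy5r and Vipr2 stay between -0.31 and 1.67. The points of Cckbr lie above those of its ligand Cck in all 5 arms.

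Related receptors of the same peptide families were read from a list of 10 genes, of which 9 are in the tables and 5 had enough counts. Sstr3 and Sstr4, further somatostatin receptors, were higher at 1 and 5 weeks by 3.09 to 3.43 and 1.6 to 1.90 on the log2 scale, and Sstr1 was lower in each arm by -1.07 to -0.54, called in all but males at 5 weeks. The Sstr1 call was lost in females at 5 weeks without opposite library 5 or injured libraries 3, 5 or 6 (adjusted p = 0.0556 to 0.0774), in males at 1 week without opposite library 4 (0.0502) or against the other week (0.109), and in females at 1 week with the ribosomal covariate (0.0904). Of the 4 somatostatin receptors tested, Sstr2 alone passed edgeR's test in no arm, at 11 to 73 counts per library. In either direction 14.1%, 47% and 34.7% of all genes passed in males at 24 h, 1 week and 5 weeks. In females 45.7% and 42% passed at 1 and 5 weeks, so the count of these receptors is no result about them. Sstr3 averaged 3.9 to 6.78 CPM in injured ganglia at 1 and 5 weeks, against 0.384 to 0.625 CPM in opposite ganglia. Cckar, the other cholecystokinin receptor, was higher at 1 week in males (0.62) and females (0.53) and called at neither 5 week arm (0.28 and -0.05). Ghrhr, a receptor of the VIP family, was higher in the 4 later arms by 1.45 to 2.91 at levels under 1 CPM; its call in females at 5 weeks (adjusted p = 0.0494) was lost with other size factors (0.0510), without the filter (0.0742) and without any 1 of 9 of the 12 libraries, all but opposite library 3 and injured libraries 2 and 4 (0.0647 to 0.121).

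Receptors of other neuropeptides gave 17 tested genes of 26 listed. Of these 1 was higher and 1 lower in males at 24 h, 5 and 5 in males at 1 week, 1 and 5 in males at 5 weeks, 3 and 5 in females at 1 week, and 4 and 2 in females at 5 weeks, where 14.1%, 47%, 34.7%, 45.7% and 42% of all genes passed in either direction; their median log2 fold change lay between -0.35 and -0.07. Bdkrb2, the bradykinin B2 receptor, was higher in all 5 arms by 0.66 to 0.88. Mc4r, a melanocortin receptor, was lower in all 5 by -1.16 to -0.81, and lost its call in females at 1 week with the ribosomal RNA share as a covariate (adjusted p = 0.797) or without opposite library 1, opposite library 5 or injured library 6 (0.0562 to 0.112), and at 5 weeks against the opposite ganglia of the other week (0.319). Nmur1, a neuromedin U receptor, was lower in the 4 later arms by -1.20 to -0.67 at under 1 CPM. Each of its 4 calls was lost under an alternative (adjusted p up to 0.391) and without single libraries (up to 0.203): injured 1 in males at 1 week, opposite 1 and 5 and injured 2, 3 and 5 in males at 5 weeks, opposite 2 in females at 1 week and opposite 6 in females at 5 weeks.

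All 23 genes for G proteins, adenylyl cyclases and inward-rectifier potassium channels were tested. In males 2 were higher and 4 lower at 24 h, 8 and 8 at 1 week, and 5 and 10 at 5 weeks; in females 8 and 9 were at 1 week and 8 and 6 at 5 weeks. Over all genes 14.1%, 47% and 34.7% passed in these male arms in either direction, and 45.7% and 42% in the female arms. Their median log2 fold change lay between -0.09 and 0.06. Kcnj6, a channel subunit opened by Gi/o-coupled receptors, was lower in the 4 later arms by -1.03 to -0.74; at 24 h its value was -0.50 (adjusted p = 0.102, 0.0445 with the replicate block and 0.0310 with the arm alone). Its partner Kcnj3 was lower in all 5 by -0.63 to -0.29, although the call in males at 5 weeks (adjusted p = 0.0388) was lost with the arm fitted alone (0.107, the highest over its alternatives), without the filter (0.0809), with a stricter filter (0.0540) and without any 1 of 8 of the 10 libraries of that arm, all but injured library 3 and opposite library 1 (0.05002 to 0.145). The inhibitory G proteins went different ways. Gnai1 was lower in all 5 arms by -0.48 to -0.20, Gnai2 was higher in the 4 later arms by 0.12 to 0.26, and Gnai3 was higher in all 5 by 0.11 to 0.38. The Gnai3 call at 24 h (adjusted p = 0.0351) was lost with the replicate block (0.0510), without the filter (0.0806), with the arm alone (0.126) and without opposite libraries 2, 4 or 6 or injured libraries 3 or 6 (0.0705 to 0.118).

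Genes most like each receptor were looked for among 12795 or 12796 others, as the mean of the Pearson correlations of log2 CPM over 24 libraries of the first and 38 of the second table. Libraries of both sides enter, so any genes with a side difference are alike by this measure, and no p is given. Cckbr was most like Gap43, a growth-associated protein of axons (mean r = 0.979), and Stac2 (0.977). Npy2r was most like Gabra5, a GABA-A receptor subunit (0.961), and Cacna2d1, a calcium channel subunit (0.949), and Galr2 most like Stat3, a cytokine-activated transcription factor (0.922), and Sbno2 (0.898). For Adcyap1r1 these were Sorl1 (0.804) and Tmem150c (0.803), and for Galr1 Usp31 (0.784) and Adgrv1 (0.769). The receptors with small side differences had weaker neighbours: Npy1r with Tshz2 and Akap12 (both 0.705), Npy5r with Vps33a (0.693), Vipr2 with Tgfb3 (0.658) and Sstr2 with Hps6 (0.654).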

How the data were processed

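RNA of L4 dorsal root ganglia was sequenced in 62 libraries. Per the labels' protocols, RNA of good integrity was made into stranded poly-A libraries with the TruSeq Stranded mRNA kit and read from 1 end. Per the submitters' processing notes reads were split with bcl2fastq 2.20.0.422 and handled by cutadapt 2.5; STAR 2.7.2b, featureCounts 1.6.4 and the build mRatBN7.2 are also listed; the counting options are not given in the sources used here. The authors deposited estimated counts per gene in 2 tables: 74.1% and 78.1% of nonzero values were whole, and the rest held fractions, which reads shared between genes or places give. The first table (males at 1 and 5 weeks) has 24 libraries of 18.9 to 33.5 M counts, and the second (females at 1 and 5 weeks, males at 24 h) has 38 of 16.9 to 26.6 M. A column of combined exon length was deposited beside them. No pair of libraries was identical.

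Groups were taken from the labels. Counts were rounded to whole numbers, which moved no library total by more than 0.0014%; the test had been set down for plain counts and was kept. Each table was fitted with edgeR 4.0.16 in R 4.3.3: TMM scaling, filterByExpr with a minimum count of 10, a robust quasi-likelihood fit on group means, and Benjamini-Hochberg adjustment over all genes tested with a threshold of 0.05. Differences between arms of different tables came from a joint fit of side differences. Error intervals are 95%. Levels are CPM on TMM-scaled library sizes, and per kb of exon where genes are compared. The fits were also run on simulated counts. Those libraries were drawn independently, without the pairing of sides, and no result here rests on them.

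Alternatives were RLE size factors, no filter, a minimum count of 30, a replicate block, the arm alone, both tables together, DESeq2 1.42.0, limma-voom (limma 3.58.1), the opposite ganglia of the other week, the ribosomal RNA share as covariate, and each library left out. The replicate numbers pair the sides: in the second table the labels give the same animal code on both sides, and in the first table same-numbered libraries deviated together in every pair (correlation 0.197 to 0.470). In the second table that correlation was over 0.1 in every female pair and in 4 of 6 pairs at 24 h. Between the sexes and between times the numbers name different animals, and the block there is the pair within an arm.

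Promoter windows are from RefSeq (GRCr8), matched by gene ID. Gene coordinates are those of the deposited tables. All 10 receptors are named; of the ligand, related receptor, other receptor and coupling lists, counts are given with values for the genes described, and the 2 genes most like each receptor were taken among genes with a mean log2 CPM of at least 1. The receptors, lists and alternatives were chosen with earlier results of these data known.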

Additional observations from a re-analysis of the deposited data

Results flagged for a closer look

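A library far from the rest of its group was found in 9 of 100 groups of receptor values; chance gives about 5% of groups. Cckbr had 0.842 CPM in opposite library 3 of males at 24 h, where the next library had 0.387 CPM. Vipr2 had a far library 4 times: 9.45 CPM in injured library 4 of males at 24 h (next 7.92 CPM), 4.46 CPM in opposite library 3 of males at 1 week (next 6.44 CPM), 10.5 CPM in injured library 5 of females at 1 week (next 7.78 CPM) and 6.75 CPM in injured library 4 of females at 5 weeks (next 8.08 CPM). Vipr1, at few counts, had 0.727 CPM in injured library 4 of females at 1 week (next 0.317 CPM) and 0.0882 CPM in injured library 2 of females at 5 weeks (next 0.233 CPM). In opposite libraries of males at 1 week, Npy5r had 1.94 CPM in library 2 (next 1.497 CPM) and Sstr2 2.11 CPM in library 1 (next 1.46 CPM).

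The side difference itself passed edgeR's test of a change between arms for 6 values, over 5 comparisons of 9 receptors each. At 1 week over 24 h in males these were Cckbr (3.60 on the log2 scale), Npy2r (0.70) and Adcyap1r1 (-0.65). There 23% of all genes passed. At 5 weeks over 1 week they were Galr2 in males (-0.42), and Npy1r (0.48) and Galr1 (0.75) in females. In these comparisons 0.211% of all genes passed in males and 13.5% in females. Leaving out 1 library in turn ended the Galr2 call in 11 of 24 cases. It ended the Npy1r call in 12 of 26 and the Galr1 call in 11 of 26.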

How the results depend on the processing

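No receptor value past the threshold changed sign under another setting or with 1 library left out. Values past the threshold lie away from 0 by the test itself, so this was likely in advance and adds no support. The receptor values looked at numbered 720 under other settings and 1917 with 1 library left out. Both numbers include values that had not passed the threshold. The signs that turned were those of values that passed no test, and the cause was not tested. Npy1r in males at 1 week was -0.11 against the opposite ganglia of the other week. Npy5r in females at 1 week was -0.16 against the other week, -0.00769 with DESeq2, -0.00904 with RLE, -0.00659 with both tables together, -0.00657 without the filter, -0.0107 with a stricter one, -0.00712 with the arm alone and -0.00119 with the replicate block. Sstr2 in females at 1 week was 0.16 with the ribosomal share. Galr1 in females at 5 weeks was 0.00922 with limma-voom, 0.000839 without the filter and 0.00427 with the block. At 5 weeks minus 1 week limma-voom gave -0.0271 for Galr1 in males and -0.0319 for Sst in females. Vipr2 on the male opposite side was -0.00323 with RLE, -0.0153 without the filter and -0.00757 with the stricter filter.

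Some counts of calls moved. With the arm alone, 2 receptors and 1604 genes were called at 24 h, in place of 4 and 2560. Against the other week 7 receptors, in place of 4, were called in males at 5 weeks. With the ribosomal share 4060 genes, in place of 8276, were called in females at 1 week. Between weeks, 0 receptors were called in males with limma-voom or without the filter, and 1 in females without the filter. The replicate block, from the pairing of sides, gave 497 genes for the weeks in males, and 517 and 697 for the sexes at 1 and 5 weeks, in place of 40, 214 and 405; beside Galr1 in males at 5 weeks and Npy2r between weeks in females it changed no receptor call.

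With 1 library left out, receptors called ranged from 2 to 4 at 24 h, 0 to 1 and 0 to 3 between weeks in males and females, and 0 to 1 on the male opposite side; genes called between weeks in males ranged from 26 to 98. Values that turned were, at 24 h, Sst (-0.00402 to 0.15), Cckar (-0.0803 to 0.0564), Ghrhr (-0.37 to 0.16) and Nmur1 (-0.30 to 0.0234). In the later arms they were Npy1r (-0.00468 to 0.0956) and Sstr2 (-0.0897 to 0.0918) in males at 1 week, Npy5r in females at 1 week (-0.10 to 0.0678), and Galr1 (-0.11 to 0.13), Sstr2 (-0.12 to 0.25) and Cckar (-0.0985 to 0.0194) in females at 5 weeks. Between weeks in males they were Galr1 (-0.15 to 0.25), Gal (-0.32 to 0.059) and Sst (-0.28 to 0.0889), and in females Vip (-0.71 to 0.63), Cck (-0.44 to 0.16) and Sst (-0.12 to 0.30). At 1 week minus 24 h it was Sstr2 (-0.0178 to 0.22). Between the sexes at 5 weeks they were Npy2r (-0.00313 to 0.15), Npy5r (-0.00267 to 0.12), Vipr2 (-0.17 to 0.0215), Adcyap1r1 (-0.0156 to 0.22) and Sstr2 (-0.28 to 0.089). On the opposite side they were Vipr2 (-0.11 to 0.0652) and Adcyap1r1 (-0.0835 to 0.00142) in males, and Vipr2 (-0.0915 to 0.0157) and Adcyap1r1 (-0.11 to 0.0433) in females. Depth limits the receptors with few counts: Vipr1, Npy5r and Sstr2 had at most 15, 60 and 73 per library, and Cckbr 5 to 22 in opposite libraries.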
